A study of Mus musculus with 8 samples.

Results

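The genes described here encode the T cell antigen receptor and its partners. They are the 3 CD3 chains Cd3d, Cd3e and Cd3g, the β-chain constant genes Trbc1 and Trbc2, the δ-chain constant gene Trdc, the coreceptors Cd4, Cd8a and Cd8b1, and Foxp3, the transcription factor that defines regulatory T cells. They were chosen by name, as 10 of the 30406 genes that all libraries share. No rule on expression values was used, but earlier results of these data were known when the genes were chosen. Their unique molecular identifiers (UMIs, one per captured transcript) were summed over the cells of each library and each cluster of the authors' annotation, and expressed per 1000000 UMIs of the same cells (CPM). Tc and gdTc are the 2 clusters that the authors named as T cells and γδ T cells.

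Most T cells bind antigen with an αβ receptor, whose β chain carries either Trbc1 or Trbc2, while γδ T cells use a δ chain with Trdc and a γ chain instead. Neither receptor signals by itself. Both are assembled with the CD3 chains, whose cytoplasmic motifs are phosphorylated by Lck once antigen is bound. Cd4 binds MHC class II and marks helper and regulatory T cells, and a pair of Cd8a and Cd8b1 chains binds MHC class I on cytotoxic T cells. Many γδ T cells carry neither coreceptor, and in mice they are frequent at barrier sites such as skin, gut and meninges.

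All 8 single-cell RNA-seq libraries came from adult male C57BL/6 mice of 10 to 16 weeks, all wild type. Leukocytes were sorted as CD45iv-CD45+, that is, positive for the leukocyte marker CD45 but not reached by a CD45 antibody injected into the blood stream shortly before death. Brain parenchyma gave 4 libraries: 1 of control mice, 2 taken 24 h after transient middle cerebral artery occlusion (MCAO, a stroke model) and 1 taken 72 h after it. Pia mater and dura mater each gave 1 control library and 1 library at 24 h. The labels do not describe the control mice further. The study's methods call the controls of its single-cell data naive, while its figure legend calls them sham. Whether surgery is part of stroke against control is therefore not settled. By the study's own account the experiment was repeated and the repeats were pooled, to a total n that it states for each compartment. How that n divides over the libraries, and so how many mice entered each, was not found. Libraries are therefore the replicates. Only the 24 h brain group has 2 of them. In the tests of summed UMIs, p-values measure the spread that tissue and stroke leave among the 8 libraries. Stroke there means 24 h or 72 h, so that spread also holds time and any difference in stroke effect between tissues. For the pia control, the title speaks of brain, but tissue and source labels give pia, which was followed.

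The authors' annotation covered 32457 of 36854 barcodes in 21 clusters, at 6591898 to 20754181 UMIs per library. Tc held 1830 cells, at 31 and 33 cells in the control brain and the first 24 h brain library, 133 in the second 24 h brain library, 249 at 72 h in brain, 126 and 289 in control and 24 h pia, and 329 and 640 in control and 24 h dura. The gdTc cluster held 668 cells, of which dura gave 190 in the control and 350 after stroke. A pair of brain libraries stood apart. The second 24 h brain library and the 72 h brain library were counted against a shorter gene list than the other 6, and the summed CPM of the 11 Tc marker genes in Tc was 5466 and 5709 in these 2 against 10227 to 12726 in the others. In the second 24 h brain library 10.5% of Tc cells had no UMI of any Cd3 gene, Trbc1, Trbc2 or Trac, against 0 to 2.0% elsewhere. The 72 h brain and 24 h dura libraries are given as made with version 3 of the kit and the others with version 2. Any 2 libraries shared 0 to 32 barcodes, at most 0.816% of the smaller library, and 1 barcode was shared between T cells of 2 libraries. The 24 h dura library shared 12 to 27 barcodes with the control libraries, the first 24 h brain library and 24 h pia. With 72 h brain it shared 1. The second 24 h brain library shared 8 with 72 h brain and 0 with every other library. The 6 libraries with the longer gene list shared 10 to 32 barcodes with one another, and 0 to 2 with the other 2. This sharing went with the gene list and did not follow the kit versions given. Whether those versions are right was not tested.

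Of the members, 5 lie on chromosome 6 and 3 on chromosome 9. On GRCm38 (GENCODE M21), Cd3g (chr9:44969572-44980431, minus strand), Cd3d (chr9:44981786-44987339, plus strand) and Cd3e (chr9:44998740-45009627, minus strand) follow one another, with 1354 bases between the first pair and 11400 between the second. Cd8b1 (chr6:71322788-71337494, plus strand) and Cd8a (chr6:71373427-71379173, plus strand) are 35932 bases apart, and Cd4 lies on the same chromosome (chr6:124864692-124888221, minus strand). Trbc1 (chr6:41538218-41539881, plus strand) and Trbc2 (chr6:41546730-41548352, plus strand) are 6848 bases apart, Trdc is at chr14:54142851-54148868 (plus strand) and Foxp3 at chrX:7573644-7595245 (plus strand). All 10 gene identifiers were the same in the files and in this annotation.

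How well the counts can tell Trbc1 from Trbc2 depends on their sequences. The first coding exon of 375 bases differs at 1 position, C260A, counted from 1 at the first coding base with the Trbc1 base first. The last 3 coding exons, 143 bases that encode the connecting peptide, the membrane span and the short cytoplasmic tail, differ at 22 positions and are 84.6% identical. They are shown because they are the coding part that separates the genes, as positions 376 to 518 of the GENCODE coding sequence on GRCm38, with the bases that differ in capitals.
Trbc1: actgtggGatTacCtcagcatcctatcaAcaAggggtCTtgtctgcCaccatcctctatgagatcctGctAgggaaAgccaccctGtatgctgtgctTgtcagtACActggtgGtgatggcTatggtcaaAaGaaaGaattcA
Trbc2: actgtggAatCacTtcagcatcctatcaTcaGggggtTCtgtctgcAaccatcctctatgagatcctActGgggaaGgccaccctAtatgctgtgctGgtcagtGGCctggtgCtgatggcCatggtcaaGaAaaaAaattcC
Beyond the coding sequence the transcripts run on for 219 bases in Trbc1 and 174 in Trbc2, at 49.6% identity. UMIs of this kit are read near the 3′ end of transcripts, where the genes differ most, but a read within the first coding exon cannot be assigned, and the split of counts between Trbc1 and Trbc2 is uncertain to that extent.

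The 3 CD3 genes had a common pattern over clusters, so the windows around their start sites are shown (RefSeq, GRCm38.p6; 250 bases before the start and 50 from it). Capitals mark CACCTG, an E-box of the kind bound by E proteins, the basic helix-loop-helix factors that act in early T cells. The motif was picked after the sequences had been seen and searched on both strands (CACCTG or CAGGTG).
Cd3g: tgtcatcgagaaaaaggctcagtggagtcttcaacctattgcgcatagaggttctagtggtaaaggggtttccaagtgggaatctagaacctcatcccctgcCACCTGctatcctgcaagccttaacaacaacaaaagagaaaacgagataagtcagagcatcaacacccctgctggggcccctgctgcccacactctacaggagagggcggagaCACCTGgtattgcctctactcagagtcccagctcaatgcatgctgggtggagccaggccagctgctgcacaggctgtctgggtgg
Cd3d: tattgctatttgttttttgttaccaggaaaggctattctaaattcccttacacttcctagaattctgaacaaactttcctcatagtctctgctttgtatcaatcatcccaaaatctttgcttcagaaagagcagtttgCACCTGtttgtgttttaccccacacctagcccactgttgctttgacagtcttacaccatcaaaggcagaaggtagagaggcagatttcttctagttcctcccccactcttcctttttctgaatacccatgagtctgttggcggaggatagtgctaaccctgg
Cd3e: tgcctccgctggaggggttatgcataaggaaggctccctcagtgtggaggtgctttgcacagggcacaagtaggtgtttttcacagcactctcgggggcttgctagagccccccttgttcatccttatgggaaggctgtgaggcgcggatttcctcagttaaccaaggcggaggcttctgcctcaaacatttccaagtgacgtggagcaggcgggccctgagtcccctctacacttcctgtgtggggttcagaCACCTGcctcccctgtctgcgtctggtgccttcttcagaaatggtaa
These windows are chr9:44980382-44980681 (minus strand), chr9:44981536-44981835 (plus strand) and chr9:45009562-45009861 (minus strand). Cd3g has matches that begin 148 and 35 bases before the start site, and Cd3d has 1 that begins 112 bases before it. The match in Cd3e begins 3 bases after the start site. Of 32851 mouse promoter windows of this length 20.2% hold the motif. TGTGGT, the core of Runx sites (both strands), occurs in 16.8% of all windows and in none of the 6 windows available for the members. Promoters were found for 5 of the 10 members, and the windows of Cd8a and Foxp3 hold neither motif.

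Across clusters, the CD3 genes were at their highest levels in Tc and gdTc. The values that follow are means of CPM over libraries with at least 30 cells in the cluster, and since the clusters were made from these cells they are a description with no test. Cd3e, which encodes the CD3ε chain, was at 858 ± 237 CPM in Tc (SD, n = 8 libraries) and 1024 ± 266 in gdTc (n = 4). Cd3d was at 995 ± 291 in Tc and 951 ± 171 in gdTc, and Cd3g at 1597 ± 643 and 2148 ± 857. Within each of the 4 libraries with enough gdTc cells, Cd3g was higher in gdTc than in Tc, at 1164 against 639 CPM at 72 h in brain, 1738 against 1521 at 24 h in pia, and 3068 against 1934 and 2620 against 1683 in control and 24 h dura. Cd3e was higher in gdTc in 4 of 4 of them as well and Cd3d in 3 of 4. The next cluster was NK, natural killer cells, at 103 ± 61.2 CPM of Cd3d (n = 6), followed by ILC2, type 2 innate lymphoid cells, at 62.5 ± 76.9 (n = 5). Of Cd3g, NK held 405 ± 180 CPM. The cluster of proliferating cells came after these, at 38.4 CPM of Cd3d and 95.3 of Trbc2. Of all UMIs of Cd3d in annotated cells, 64.3% lay in Tc and 24.2% in gdTc, and the shares were 63.7% and 27.2% for Cd3e and 54.7% and 32.2% for Cd3g. Counted by cell, 93.0% of Tc cells and 93.4% of gdTc cells had a UMI of at least 1 CD3 gene. The share was 22.9% in NK, 9.96% in ILC2, 1.84% in B cells and 0.562% in microglia, which should lack these genes. Median depth per library was 888 to 1912 UMIs in Tc, 965 to 2157 in NK and 805 to 1638 in B cells.

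The β-chain constant genes were less restricted than CD3. Trbc2 was at 1731 ± 392 CPM in Tc (n = 8), 1015 ± 213 in gdTc (n = 4), 459 ± 139 in NK (n = 6) and 336 ± 57.8 in ILC2 (n = 5). Trbc1 was at 912 ± 284 in Tc, 612 ± 209 in NK, 583 ± 207 in gdTc and 425 ± 115 in ILC2, and the ranges of the last 3 overlap. Only 52.8% of Trbc1 UMIs came from Tc, with 17.5% from NK, 13.6% from ILC2 and 12.5% from gdTc. With every cell thinned to 500 UMIs, 67.3% of Tc cells, 47.9% of gdTc cells, 38.3% of NK cells and 29.1% of ILC2 cells had a UMI of Trbc1 or Trbc2, and 0.676% of B cells and 0.143% of microglia. Before thinning the shares were 86.3%, 70.7%, 64.7%, 44.5%, 1.84% and 0.286%.

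The split of these UMIs between Trbc1 and Trbc2 is given by cluster as a description. In Tc, Trbc1 made up 28.5% (exact 95% interval 24.4 to 32.9%) in control pia at the lowest and 41.6% (32.9 to 50.8%) in control brain at the highest. In NK it ranged from 42.6% (34.3 to 51.2%) at 72 h in brain to 65.0% (40.8 to 84.6%) in control brain, where it rests on 13 UMIs of Trbc1 and 7 of Trbc2. Every library had a higher Trbc1 share in NK than in Tc. In ILC2 of dura it was 58.0% in the control and 55.9% at 24 h, and in gdTc of dura 41.1% and 42.4%. All intervals for shares and single sums cover counting error only.

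Trdc was the member most concentrated in 1 cluster. Its mean was 3994 ± 2898 CPM in gdTc (n = 4), 197 ± 142 in NK (n = 6) and 46.8 ± 48.0 in Tc (n = 8), and 89.1% of its UMIs came from gdTc, 5.57% from NK and 3.06% from Tc. After thinning to 500 UMIs, 72.6% of gdTc cells, 7.11% of NK cells, 1.97% of Tc cells and 0.386% of B cells had a Trdc UMI, from 78.7%, 12.5%, 2.90% and 0.580% before it. Trac, the α-chain constant gene and no member, ran the other way, with a UMI in 67.4% of Tc cells and 11.4% of gdTc cells. Cells with a UMI of both Trdc and Trac were 35 of 668 in gdTc and 8 of 1830 in Tc.

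**Figure D1:**
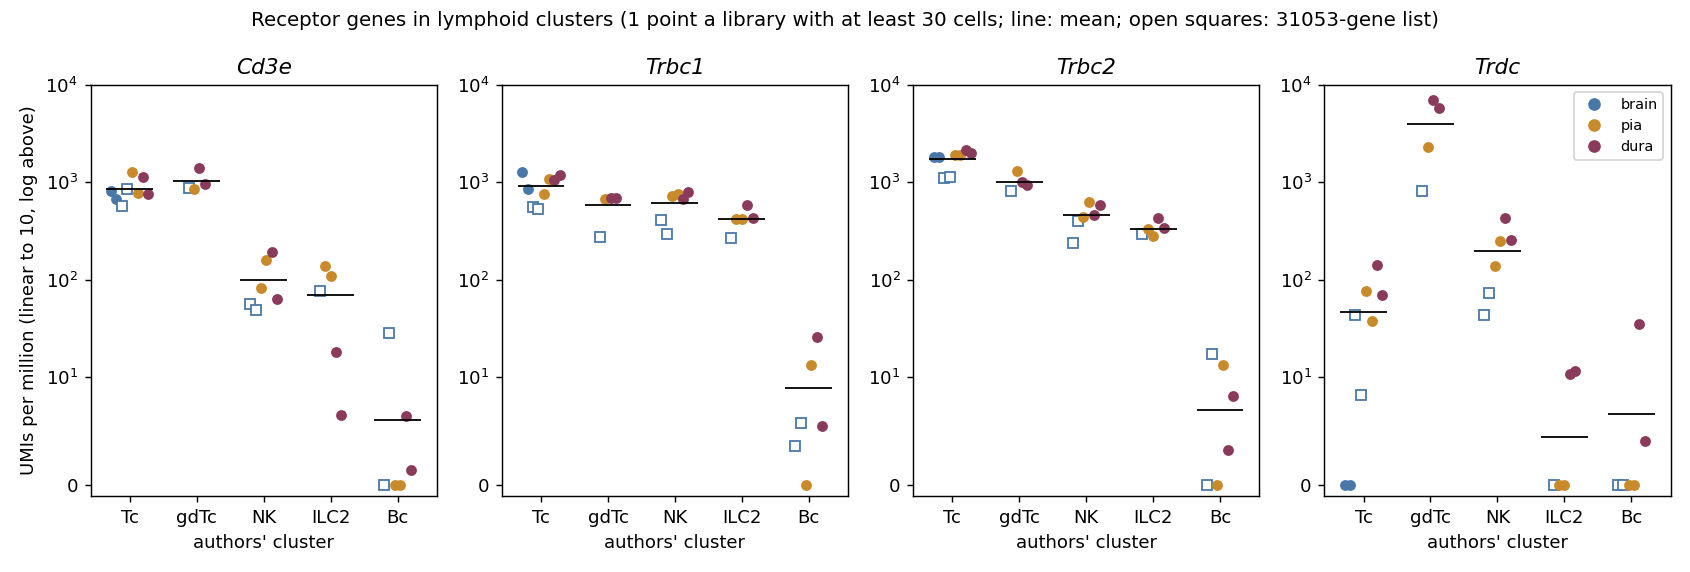
CPM of Cd3e, Trbc1, Trbc2 and Trdc in 5 lymphoid clusters (Bc, B cells), 1 point per library with at least 30 cells, coloured by tissue, on an axis that is linear up to 10 and logarithmic above, with the mean as a line and open squares for the 2 libraries with the shorter gene list. Cd3e lies near 858 CPM in Tc and 1024 in gdTc, both Trbc genes reach NK and ILC2 as well, and Trdc is at 3994 in gdTc against 46.8 in Tc.

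Transcripts of the CD8 chains were nearly restricted to Tc, and those of Cd4 were not. Cd8b1 was at 486 ± 230 CPM in Tc (n = 8) and next at 28.5 ± 25.0 in mDC1, a dendritic cell cluster. Cd8a was at 340 ± 176 in Tc and 9.38 in mDC1. Tc held 87.1% of Cd8a UMIs and 82.7% of Cd8b1 UMIs, with 11.2% of Cd8b1 in mDC1. The number of Cd8b1 UMIs per Cd8a UMI in Tc was 1.31 to 1.75 in the 8 libraries. Cd4 was at 75.7 ± 42.6 CPM in Tc, 16.1 ± 21.8 in CAM_2 and 14.0 ± 18.8 in CAM_1, the 2 clusters of CNS-associated macrophages. Only 40.6% of Cd4 UMIs lay in Tc and 25.9% in CAM_1. Foxp3 was close to the limit of these data, with 22 UMIs in all annotated cells and 13 of them in Tc, from 12 of 1830 cells.

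**Figure D2:**
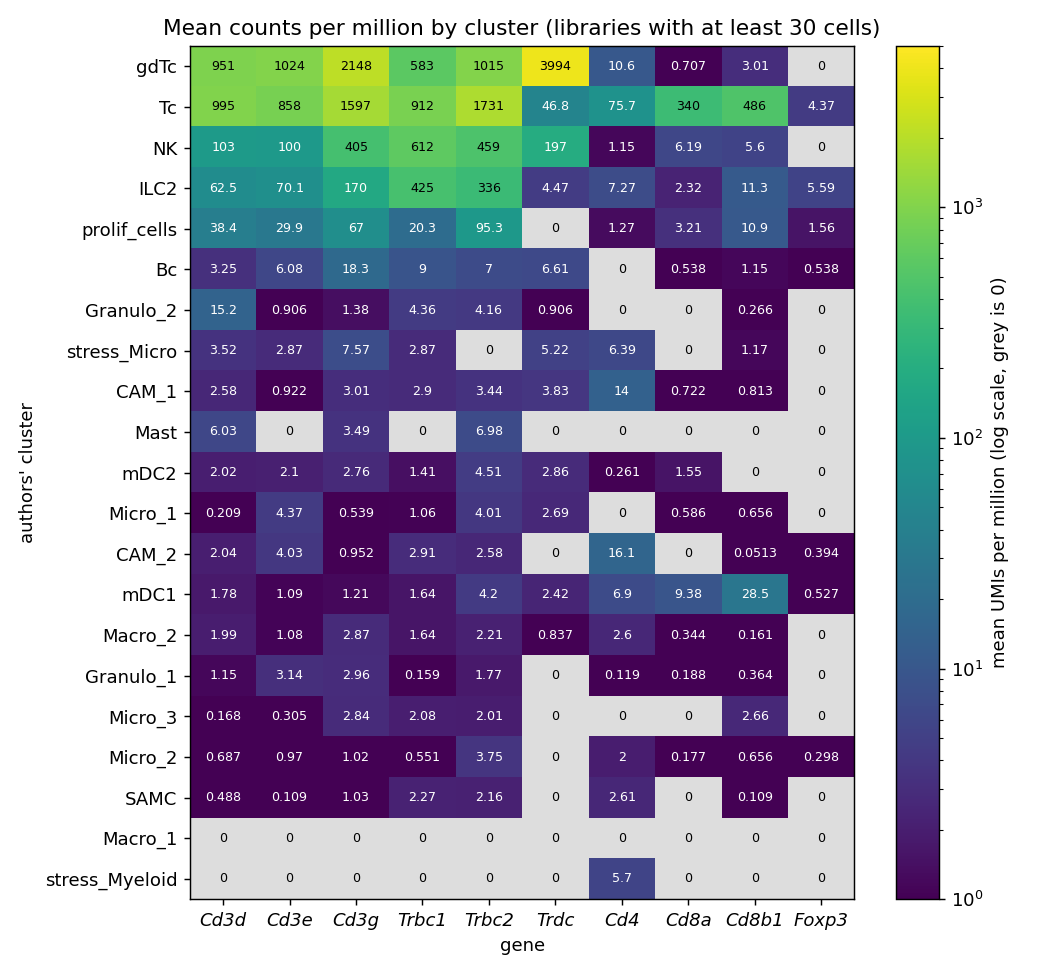
Mean CPM of the 10 genes (columns) in the 21 clusters (rows) over libraries with at least 30 cells, as colour on a log scale with the value printed and grey for 0. The CD3 genes are highest in Tc and gdTc, and the Trbc genes reach NK at 612 and 459 CPM and ILC2 at 425 and 336. Cd4 has means of 16.1 and 14.0 in CAM_2 and CAM_1, taken over tissues that differ. Both clusters were at 0 in most brain libraries and above 0 in pia and dura.

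Which genes followed the members over clusters and libraries was read from the correlation of log2(CPM + 10) over the 112 sums of at least 30 cells. These sums share libraries, depth and cell types, so the coefficients are a description. The mean of the CD3 genes was followed most closely by Cd247 (r = 0.96), the ζ chain of the same complex, then by Trac (0.96), Thy1 (0.96), Tcf7 (0.94) and Zap70 (0.93). Nearest to Trdc was Tcrg-C2 (r = 0.92), a γ-chain constant gene, and Il12rb1 (0.84) and Prrt1 (0.84) came next. Cd8b1 was closest to Gzmk (r = 0.92), a granzyme, Dapl1 (0.88) and Cd6 (0.88). For Cd4 the closest were Gzmk (r = 0.72), Cd6 (0.69) and Themis (0.69), and for Foxp3, at its few UMIs, Neu3 (0.65), Perp (0.60) and 1500009L16Rik (0.59).

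The first comparison asks how much receptor transcript the sorted leukocytes of each tissue carried. Here all annotated cells of a library were summed. These sums alone therefore do not tell more T cells, more RNA per T cell and transcript of other clusters apart. UMIs by cluster show how much came from outside Tc. For Cd4, Tc held 3 of 3, 7 of 7, 17 of 24 and 41 of 70 UMIs in the brain libraries. In control and 24 h pia Tc held 5 of 50 and 14 of 37 Cd4 UMIs, and in dura 15 of 62 and 52 of 126. Of Trbc1 in control and 24 h dura, Tc held 379 and 716 UMIs, ILC2 163 and 262, gdTc 151 and 242 and NK 120 and 202. In the brain libraries Tc held 52, 38, 154 and 191 Trbc1 UMIs and NK 13, 14, 94 and 60. There gdTc held 4, 3, 13 and 15 and ILC2 0, 2, 7 and 28. Trdc was at 6.03 CPM in control brain, 3.21 and 9.51 in the 24 h brain libraries, 4.08 at 72 h in brain, 17.6 and 20.9 in control and 24 h pia, and 291 and 275 in control and 24 h dura. The 3 tissues did not overlap, and the dura mean of 283 ± 11.5 CPM (n = 2) stood against 5.71 ± 2.79 in brain (n = 4). Cd3g was at 20.4, 13.9, 44.7 and 23.1 CPM in the 4 brain libraries in the same order, 77.7 and 90.4 in pia and 268 and 260 in dura, again without overlap. Trbc2 was at 13.9, 12.9, 59.7 and 39.6 CPM in brain, 69.9 and 110 in pia and 218 and 242 in dura. The control brain and the first 24 h brain library were below the other 2 brain libraries for every member but Trdc.

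In dura against brain, 5 of the 9 members with enough counts to be tested were higher (edgeR quasi-likelihood test with tissue and stroke as terms, Benjamini-Hochberg adjusted over 12380 genes). Among all genes tested, 2.73% were called higher. Trdc rose by 5.92 ± 0.43 on the log2 scale (SE, adjusted p = 0.0037). Cd3g rose by 3.73 ± 0.41 (adjusted p = 0.013), Trbc1 by 3.62 ± 0.58 (adjusted p = 0.025), Trbc2 by 3.47 ± 0.54 (adjusted p = 0.025) and Cd3d by 3.20 ± 0.45 (adjusted p = 0.021). Cd3e missed the threshold at a log2 difference of 3.27 ± 0.76 (adjusted p = 0.061), as did Cd4 at 3.06 ± 0.82 (adjusted p = 0.084), Cd8a at 1.82 ± 0.52 (adjusted p = 0.098) and Cd8b1 at 1.72 ± 0.57 (adjusted p = 0.13). Foxp3, at 0 to 0.70 CPM in every library, did not pass the filter on low counts. The median log2 difference was 3.27 over the 9 members tested and −0.11 over all genes tested. Tc made up 0.721%, 0.720%, 3.84% and 4.12% of annotated cells in the brain libraries, 4.48% and 7.37% in pia and 11.7% and 14.2% in dura, and gdTc 0.0873 to 0.678% in brain, 0.569% and 1.10% in pia and 6.76% and 7.75% in dura.

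These calls depend on single libraries. Without the 24 h dura library no gene was called, without the control dura or the control brain library 1 member was, and without either pia library 2 were. With kit version, as given, as a covariate 1 member was called. Barcode sharing did not follow those versions, so what this covariate adjusts for is not settled. Restricting the fit to the 6 libraries with the longer gene list, an alternative chosen after seeing the data, called all 9 tested members higher in dura, against 27.1% of genes called higher.

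By tissue mean, pia lay between brain and dura for every member but Cd8a. In pia against brain none of the 9 tested members passed by edgeR, at log2 differences of 1.58 to 2.33 and a smallest adjusted p of 0.088 for Cd3g, against 0.307% of genes called. DESeq2 called 6 of the 9 higher, against 3.75% of genes called higher. In the 6 libraries with the longer gene list all 9 were called higher in pia, against 21.0% of genes called higher. Cd8a reached 15.5 and 16.04 CPM in pia and 16.3 and 15.2 in dura, so that its level did not separate these tissues, whereas Trdc was at 20.9 CPM in its higher pia library and 275 in its lower dura library.

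Stroke against control, fitted over all tissues, called none of the 9 members and 0% of 12380 genes by edgeR. Unadjusted p was under 0.05 for 514 genes, and DESeq2 called 73 genes, none of them a member. The fitted log2 differences of the members ran from −0.14 ± 0.35 for Trdc to 0.67 ± 0.49 for Trbc2. Time after MCAO could be looked at in brain alone, where Cd4 was at 0.431 CPM in the control, 0.802 and 3.57 at 24 h and 4.33 at 72 h. Both 24 h libraries were further apart from each other than the second of them was from the 72 h library, so no order by time can be read from these values.

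**Figure D3:**
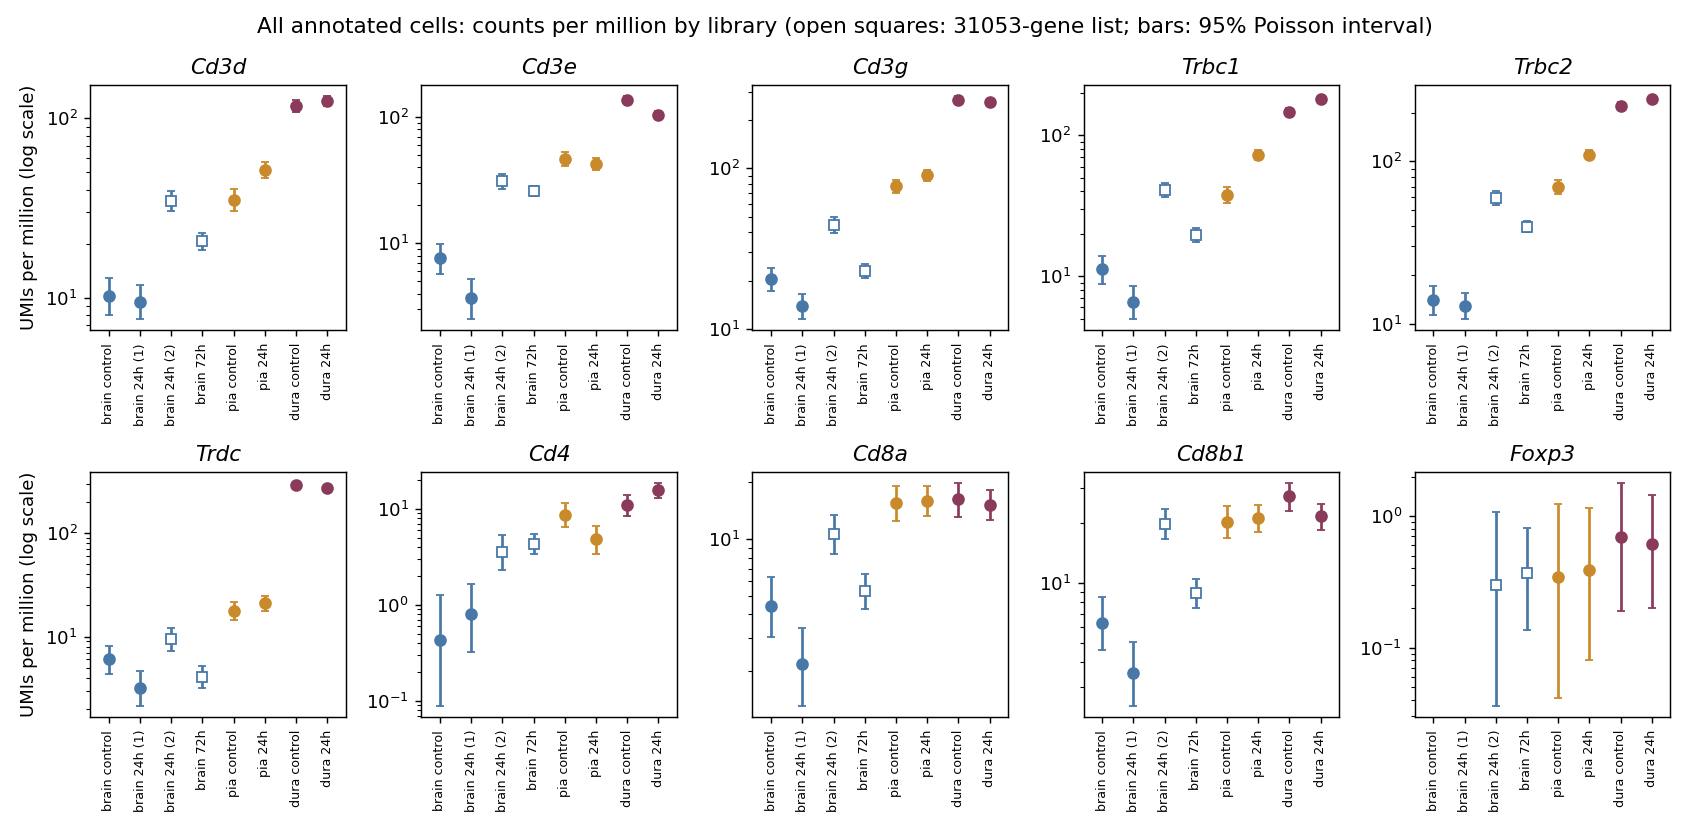
CPM of each member in the sum of all annotated cells of the 8 libraries, on a log axis for each gene, coloured by tissue with 95% Poisson intervals, open squares for the shorter gene list and values of 0 left out (Foxp3 in 2 brain libraries). Dura is highest for Trdc at 291 and 275 CPM, while Cd8a is at 15.5 and 16.04 in pia and 16.3 and 15.2 in dura.

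Genes of the same pathway, from lists drawn up with earlier results of these data known, were counted in the same fit of all annotated cells. The share of all genes called higher there was 2.73%, as above. Of the other receptor chain genes, 6 of 6 tested were higher in dura than in brain, led by the γ-chain constant genes Tcrg-C1 (log2 difference 5.49 ± 0.41, adjusted p = 0.0037), Tcrg-C4 (4.29) and Tcrg-C2 (4.19), and Trat1 (4.15), a receptor-associated adaptor. Trat1 had 2, 5, 8 and 9 UMIs in the brain libraries and 53 in control dura. It passed the filter on low counts through the other tissues, so its call is no support, although the count of 6 includes it. Whether other genes of these lists, or of the marker lists below, passed in this way was not checked. The counts of genes called higher are therefore a description and no support. Of the genes for proximal receptor signalling, 7 of 20 were higher, with Lat, the membrane adaptor that links receptor and calcium signalling, at 4.32 ± 0.32 (adjusted p = 0.0037), Ubash3a at 4.14, the kinase Zap70 at 3.65 and the adhesion receptor Cd2 at 3.37. Among T lineage transcription factors Gata3, which ILC2 also use, was higher at 4.28, and of genes known from regulatory T cells 4 of 10 were higher, namely Il10 at 5.19, Tnfrsf18 at 5.04, Tnfrsf4 at 4.71 and Izumo1r at 3.84. Of the recirculation and residence genes 1 of 11 was higher, Cxcr6 at 4.77. None of the genes in these lists was lower. In pia against brain, Lat at 2.51 ± 0.31 (adjusted p = 0.039) and Tnfrsf18 at 3.24 ± 0.37 (adjusted p = 0.026) were higher and no other gene of these lists was called, and none was called for stroke. Markers of other cells moved with dura too: 5 of 7 ILC2 markers, 1 of 7 NK markers, 1 of 5 B cell markers, 1 of 5 dendritic cell markers and 2 of 3 mast cell markers were higher than in brain. Lower in dura were 2 of 6 microglia markers, 1 of 4 neutrophil markers and 1 of 6 dissociation and stress markers, against 1.65% of all genes. Median log2 differences of these 3 marker lists were −4.84, 2.45 and −1.99, so the neutrophil markers as a set were not lower. The part of the markers of other cells in the results for the pathway lists was not tested.

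The second comparison asks whether the members differed within T cells, from the sums of the Tc cluster alone. Cd8b1 was at 893 CPM in control brain, 648 and 434 in the 24 h brain libraries, 286 at 72 h in brain, 654 and 463 in control and 24 h pia, and 254 and 258 in control and 24 h dura. Both dura libraries were below the other 6, the nearest of which was brain at 72 h. Cd8a followed the same order in most libraries, at 670, 425, 251 and 164 CPM in brain, 473 and 355 in pia and 190 and 192 in dura, where the 72 h brain library was the lowest of all. In the fit over 8 libraries, Cd8b1 had a log2 difference of −1.18 ± 0.40 in dura against brain (edgeR, adjusted p = 0.11) and Cd8a one of −0.96 ± 0.41 (adjusted p = 0.18), and neither was called. DESeq2 called Cd8b1 at a log2 difference of −1.23 and an adjusted p of 0.050, just under the threshold, against 0.672% of genes called lower, and no other member.

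Trdc within Tc was at 0 CPM in control brain and the first 24 h brain library, 43.1 in the second, 8.33 at 72 h in brain, 75.9 and 37.3 in pia and 141 and 69.3 in dura. Its log2 difference between dura and brain was 1.76 ± 0.65 (adjusted p = 0.13). Cd4 was at 74.4, 156, 61.0 and 114 CPM in brain, 29.2 and 43.6 in pia and 41.4 and 85.9 in dura. Pia was below every brain library, at a log2 difference of −1.24 ± 0.52 (adjusted p = 0.21). These values rest on few UMIs, from 3 to 52 of Cd4 per library.

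The CD3 chains in Tc were spread as widely within brain as between tissues. Cd3g was at 2357 and 2124 CPM in the control brain and first 24 h brain libraries but at 642 and 639 in the second 24 h and 72 h libraries, against 1880 and 1521 in pia and 1934 and 1683 in dura. Cd3d ran at 1364, 1453, 657 and 639 CPM in brain and 936 to 986 in pia and dura. Cd3e did not follow them, at 819, 671, 567 and 852 CPM in brain, 1290 and 778 in pia and 1123 and 761 in dura. Per Cd3e UMI, Tc held 2.88 and 3.17 Cd3g UMIs in the control brain and first 24 h brain libraries, 1.13 and 0.749 in the 2 libraries with the shorter gene list, and 1.46 to 2.21 in pia and dura. Trac, too, was at 664 and 744 CPM in those 2 libraries and 1298 to 1994 in the others. The first 24 h brain library is also of brain after stroke, but was counted against the longer gene list. Whether the shorter gene list set these levels was not tested, since it cannot be told apart from what else differed between these libraries. Trbc2 ranged from 1098 to 1833 CPM in brain, from 1903 to 1919 in pia and from 2018 to 2129 in dura, and Trbc1 from 530 to 1290, 759 to 1086 and 1045 to 1182.

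By edgeR, none of the 9 members tested in Tc was called in dura against brain (2.34% of 5310 genes called), in pia against brain (0.151%) or in stroke against control (0%, with 140 genes at an unadjusted p under 0.05 and 0 genes by DESeq2). Median log2 differences of the members were 0.15, 0.23 and −0.39, beside −0.01, 0.00 and 0.05 over all genes tested. No gene of the other pathway lists was called in Tc either. The closest in dura were Trat1 at 1.74 ± 0.49 (adjusted p = 0.070), Runx3 at −1.80 ± 0.52 and Itga1 at −2.30 ± 0.65 (both adjusted p = 0.074), and Ubash3a at 1.53 ± 0.45 (adjusted p = 0.079). Runx3 is a transcription factor of the CD8 lineage and Itga1 an integrin chain of resident T cells.

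Members were called in Tc when the fit was restricted to the 6 libraries with the longer gene list, an alternative added after seeing the data. Cd8b1 fell by 1.49 on the log2 scale in dura against brain (adjusted p = 0.00043) and Cd8a by 1.42 (adjusted p = 0.0040), against 1.04% of genes called lower. Both brain libraries of this fit had 0 Trdc UMIs among 85044, so that Trdc passed the filter on low counts through the other tissues and its call is not used. Its level in dura was 105 CPM on average and 69.3 in the lower library, and a count of 0 allows up to 35.3 CPM over these 2 brain libraries. The second 24 h brain library, which this fit leaves out, was at 43.1 CPM. In stroke against control Cd3e fell by 0.62 (adjusted p = 0.0064), against 1.11% of genes called lower. Gene list as a covariate over all 8 libraries called Cd8b1, Cd8a and Cd3e in the same directions. The 2 brain libraries in the smaller fit hold 31 and 33 Tc cells.

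Transcripts of other cells moved with tissue in the Tc sums. The 6 microglia markers summed to 1985, 782, 639 and 683 CPM in Tc of brain and to 82.6 to 228 CPM in pia and dura, and 5 of 6 were called lower in dura, against 0.866% of all genes tested. The 7 macrophage markers summed to 632 to 1547 CPM in brain and 2358 to 5996 in pia and dura, with 2 of 6 tested called higher in dura, against 1.47% of all genes. Of neutrophil markers 2 of 3 tested were called higher in dura too, and of dendritic cell markers the 1 tested. Whether the markers called higher passed the filter on low counts only through dura or pia was not checked. Of the 6 dissociation and stress markers 3 were called lower in dura, at sums of 5380 to 17571 CPM in brain, 5692 and 7169 in pia and 7141 and 8607 in dura. NK markers in Tc summed to 1357 and 1252 CPM in the libraries with the shorter gene list and 2601 to 4046 in the others, and none of 6 was called. The part of these transcripts in the levels of the members was not tested.

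**Figure D4:**
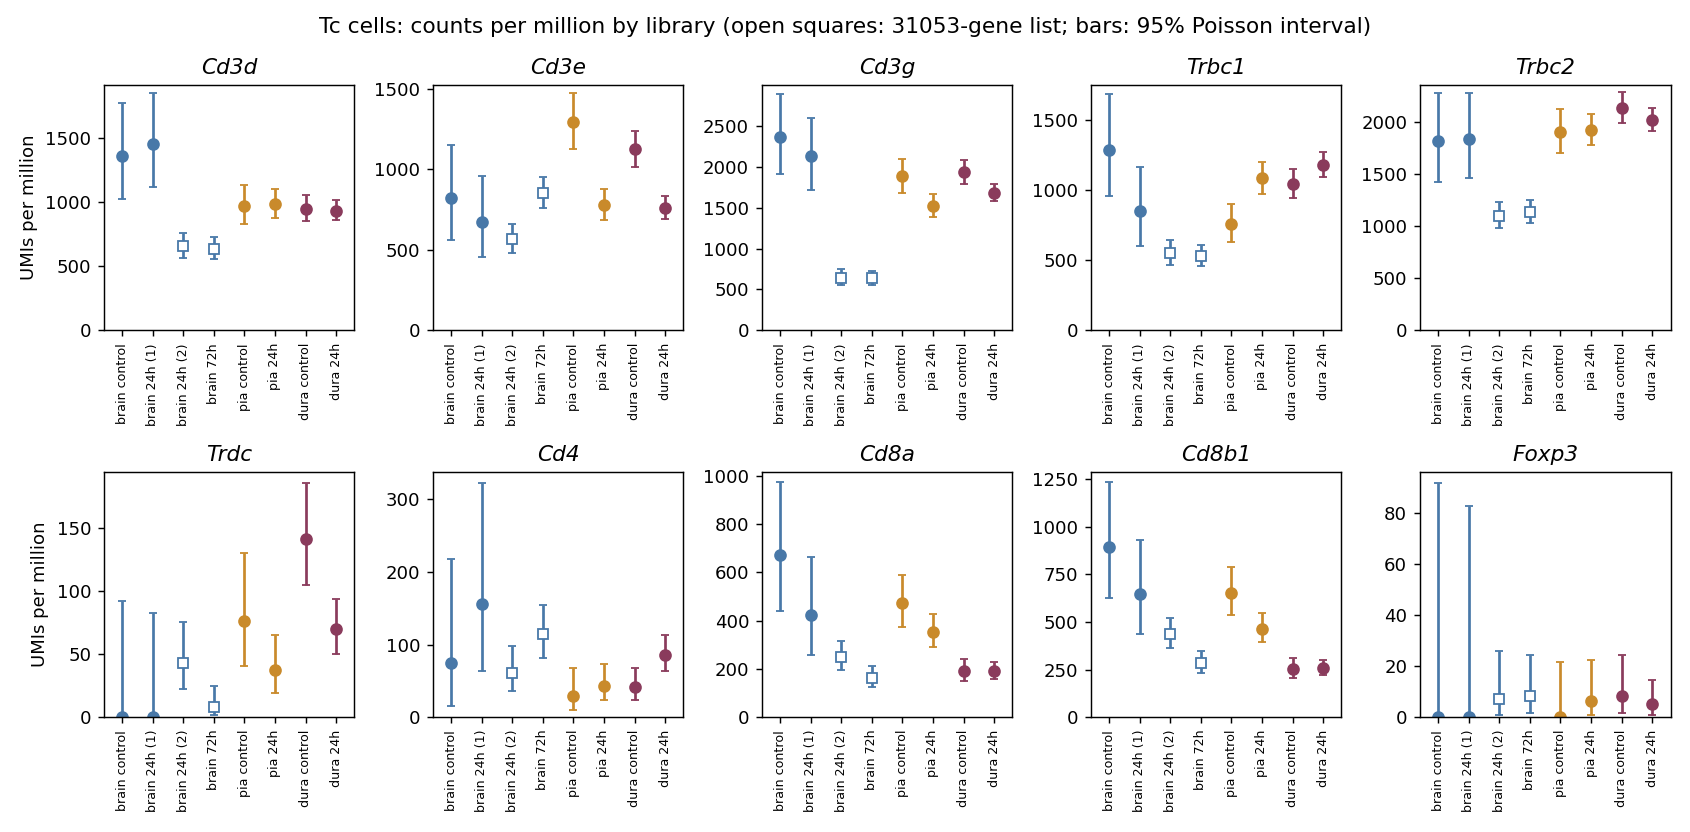
CPM of each member in the Tc cluster of the 8 libraries, on linear axes that start at 0 and differ between genes, coloured by tissue with 95% Poisson intervals and open squares for the shorter gene list. Cd3g is at 2357 and 2124 CPM in 2 brain libraries and 642 and 639 in the other 2, and Cd8b1 is lowest in dura at 254 and 258.

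The third comparison counts coreceptors cell by cell. Over all libraries 136 of 1830 Tc cells (7.43%) had a UMI of Cd4 without Cd8a, 364 (19.9%) of Cd8a without Cd4, 3 (0.164%) of both and 1327 (72.5%) of neither. In B cells, which should lack these genes, 0 of 1035 had Cd4, which allows up to 0.290%, and 3 of 1035 (0.290%) had Cd8a or Cd8b1. In microglia 7 of 10506 cells (0.0666%) had Cd4 and 15 (0.143%) Cd8a or Cd8b1. With Cd8b1 counted beside Cd8a, 568 of the Tc cells (31.0%) had a CD8 transcript, 232 of them with both chains. The remaining cells are no class of their own at this depth, since the share with neither gene was 87.8% when each cell was thinned to 500 UMIs.

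Before thinning, the share of Tc cells with Cd4 without Cd8a was 9.68%, 18.2%, 12.03% and 14.1% in the brain libraries, 3.97% and 4.15% in pia and 4.56% and 6.88% in dura, and brain did not overlap with the meninges. The share with Cd8a without Cd4 was 45.2%, 39.4%, 33.8% and 17.7% in brain, 36.5% and 28.7% in pia and 12.2% and 12.3% in dura. Neither gene was found in 42.4 to 68.3% of Tc cells in brain, 59.5% and 67.1% in pia and 83.3% and 80.3% in dura. Median UMIs per Tc cell ran from 1205 to 1912 in brain, 1045 to 1274 in pia and 888 to 1009 in dura.

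Thinned to 500 UMIs per cell, which left out 1 of 1830 cells, the Cd4 shares were 6.45%, 0%, 3.01% and 5.62% in brain, 1.59% and 3.13% in pia and 1.52% and 2.97% in dura. The 0 is of 33 cells, which allows up to 9.09%. Cd8a without Cd4 was in 25.8%, 18.2%, 7.52% and 7.23% of cells in brain, 15.9% and 14.2% in pia and 7.29% and 6.56% in dura. Cd8b1 was in 38.7%, 27.3%, 17.3% and 8.03% in brain, 23.8% and 17.0% in pia and 9.42% and 9.69% in dura. For both CD8 genes the dura shares lay below those of pia. The brain libraries reached above and below all others in Cd8b1, and in Cd8a the lowest of them lay between the dura libraries.

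The 6 shares were compared between the 4 brain and the 4 meningeal libraries by exact permutation (two-sided, smallest p possible 0.029). A single share without overlap cannot pass here, since its p is 0.17 after adjustment over the 6 shares. Cd4 without Cd8a was in 3.77% ± 2.91 of Tc cells in brain and 2.30% ± 0.86 in the meninges (SD, n = 4 each; exact permutation p = 0.37, adjusted over the 6 shares 0.51). Cd8a without Cd4 was in 14.7% ± 8.997 and 11.0% ± 4.75 (exact permutation p = 0.43, adjusted 0.51), and Cd8b1 in 22.8% ± 13.2 and 14.98% ± 6.86 (exact permutation p = 0.34). Neither coreceptor was found in 81.5% ± 9.74 and 86.7% ± 4.77 (exact permutation p = 0.40), Foxp3 in 0.100% and 0.278% (exact permutation p = 0.37), and both Cd4 and Cd8a in 0 cells. Without thinning, the Cd4 share was 8.60 percentage points higher in brain, in 4 of 4 libraries (exact permutation p = 0.029, adjusted 0.17), and at 1000 UMIs 8.88 points (exact permutation p = 0.029, adjusted 0.17). Direction for CD8 rested on the 2 brain libraries of 31 and 33 Tc cells: without them the brain share minus the meningeal share was −3.62 points for Cd8a without Cd4 and −2.32 for Cd8b1.

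**Figure D5:**
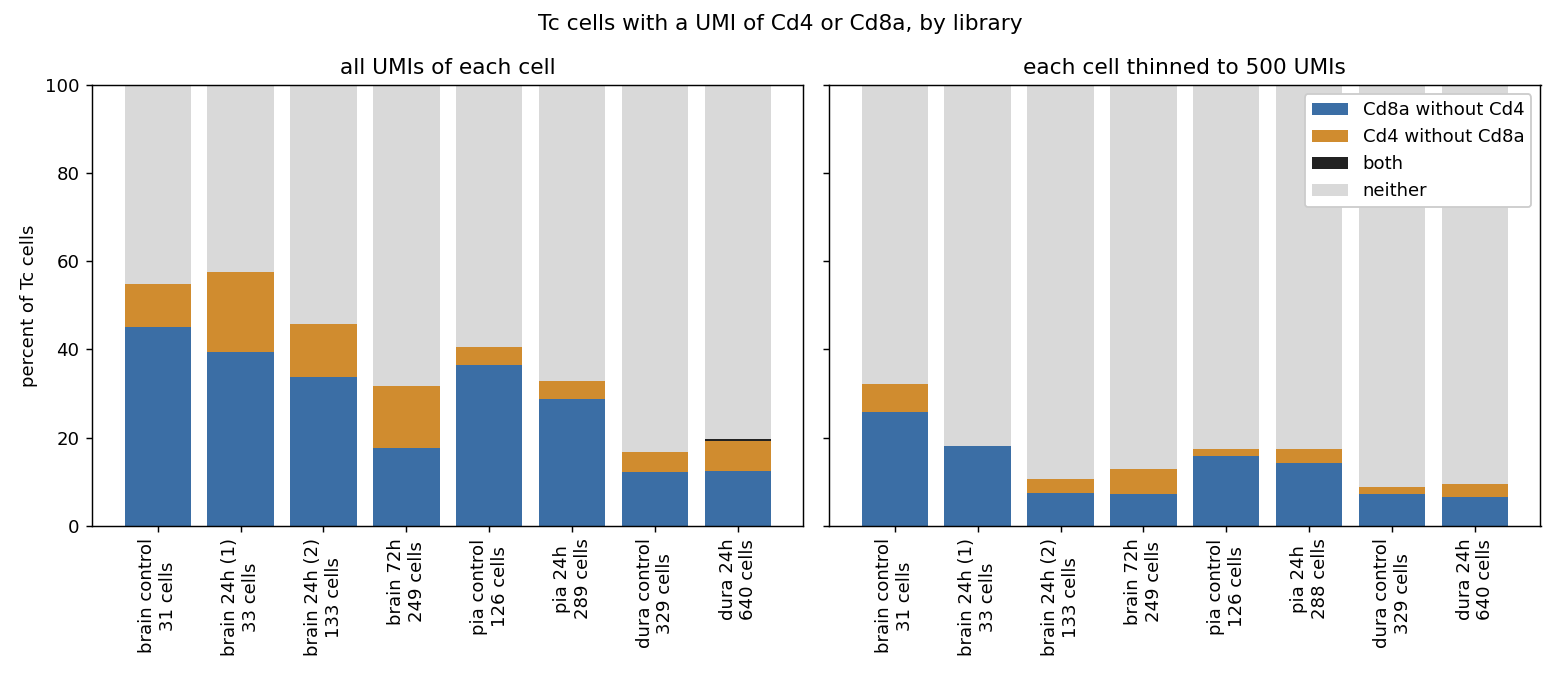
Stacked shares of Tc cells, in percent per library, with a UMI of Cd8a without Cd4, Cd4 without Cd8a, both or neither, from all UMIs (left) and after thinning each cell to 500 UMIs (right), with the number of cells under each bar. Cells with neither gene make up 42.4 to 83.3% before thinning and 67.7 to 91.2% after it.

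In gdTc coreceptors were nearly absent. Of 668 cells 663 (99.3%) had neither Cd4 nor Cd8a, 3 (0.449%) had Cd4 and 5 (0.749%) had Cd8a or Cd8b1, against 7.596% and 31.0% in Tc. Most gdTc cells of dura held Trdc. There 85.8% (exact 95% interval 80.0 to 90.4%) of control and 84.0% (79.7 to 87.7%) of 24 h gdTc cells had a Trdc UMI, and after thinning to 500 UMIs 84.7% and 77.7%. In control pia 13 of 16 cells (81.25%) had one. At 72 h in brain 46.3% (30.7 to 62.6%) of 41 gdTc cells had one, and at 24 h in pia 53.5% (37.7 to 68.8%) of 43, which fell to 29.3% and 44.2% on thinning. Trac without Trdc was found in 22.0% of gdTc cells at 72 h in brain and 18.6% at 24 h in pia, but in 3.16% and 2.57% in dura. As CPM, Trdc was at 4068, 656, 944 and 818 in gdTc of brain, 3592 and 2332 in pia and 6976 and 5850 in dura, where the first 3 brain sums are of 6, 4 and 18 cells and the control pia sum is of 16. Tcrg-C1, the partner constant gene on the γ side, was at 2085 and 2218 CPM in dura gdTc, 2155 and 1293 in pia and 437 at 72 h in brain. The cluster was made from these genes, so its levels carry no test.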

How the data were processed

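The data were 8 single-cell RNA-seq libraries (10x Chromium, 3′ kit) of sorted leukocytes. The authors deposited UMI counts per gene and barcode, made with Cell Ranger 6.0 against mm10 and without normalization, at 6591898 to 20754181 UMIs per library, and a table of each annotated cell's cluster. For that table they filtered cells by genes and mitochondrial share, removed doublets with scDblFinder 1.6, clustered in Seurat 4.0.4 (R 4.1.1) and named clusters by hand. The authors' UMAP coordinates in that table are scores and were not used. The 4397 barcodes without a cluster entered no comparison. Their CD3 genes were at 67.1, 26.0, 29.6 and 39.8 CPM in the brain libraries, 98.4 and 122 in control and 24 h pia and 289 and 233 in dura. Some barcodes with CD3 transcript are thus missing from the levels and shares, and not evenly over tissues.

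Genes were matched by identifier over both gene lists. UMIs were summed per library and cluster, and levels are UMIs per 1000000 UMIs of the same cells (CPM), with exact Poisson intervals. Shares carry exact Clopper-Pearson intervals at 95%, a count of 0 was taken to allow 3 counts, and intervals cover counting error only. A cluster needed 30 cells in a library. Cells were thinned at random (seed 20220217) to 500 UMIs, or 1000 as an alternative. Sums were tested with edgeR 4.0.16 in R 4.3.3 (filterByExpr, TMM, robust glmQLFit, glmQLFTest, tissue and stroke as additive terms over 8 libraries), two-sided, called at a Benjamini-Hochberg adjusted p under 0.05. DESeq2 1.42.0 was the other tool. Shares in brain and meninges were compared by exact permutation over libraries (scipy 1.17.1, Python 3.11.15). Alternatives were another normalization, no filter, kit version as given, thinning, gene list and leaving out each library. The main fit was also run on simulated counts with a common dispersion and changes in dura alone. That setting is simpler than these data and holds no gap between gene lists, so it does not bear on that gap.

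The members, gene lists and tests were chosen with earlier results of these data known. Named were all 10 members and, from each list, up to 4 called genes with the largest change per comparison, or the 2 with the smallest adjusted p. Coordinates and coding sequences are of GENCODE M21 (GRCm38) and promoters of RefSeq (GRCm38.p6). Build and annotation behind each gene list were not given in the sources used here beyond mm10. The result for 1 gene of these lists is not reported here.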

Additional observations from a re-analysis of the deposited data

Results flagged for a closer look

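In the share of Tc cells with Foxp3 after thinning, the 72 h brain library stood apart from the other 3 brain libraries, at 0.402% against 0 in each. This is 1 of 249 cells against 0 of 31, 33 and 133, and before thinning the second 24 h brain library was at 0.752% (1 of 133) and the 72 h library at 1.20% (3 of 249). The Foxp3 share was 1 of 32 groups of libraries checked, and chance flags about 1 in 20 groups. That rate does not apply here, since with 0 in the other 3 libraries a single cell is enough for a flag.

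For 9 of 30 pairs of tissues, every library after stroke lay on opposite sides of its control in one tissue and the other, by Tc level. None of these differences was tested, and each pia or dura value compares single libraries. Opposite sides are therefore frequent by chance, at a rate that was not computed here, nor was the share over all genes. The count of 9 is thus no result about the members. Cd3d was 11.1 CPM higher after stroke in pia and differed by −15.4 in dura. Trbc1 was 327 CPM higher in pia and 137 higher in dura, and differed by −646 in brain on average. Trbc2 was 15.9 CPM higher in pia and differed by −112 in dura. Cd8a was 1.21 CPM higher in dura and differed by −118 in pia and −390 in brain. Its dura levels were 190 CPM (95% Poisson interval 148 to 241) in the control and 192 (158 to 230) at 24 h, so their difference lies within counting error. Cd8b1 was 3.82 CPM higher in dura and differed by −190 in pia and −437 in brain. Levels in the control and at 24 h were close for Cd8b1 in dura, at 254 and 258 CPM. In pia they were close for Cd3d, at 975 and 986 CPM, and for Trbc2, at 1903 and 1919. Foxp3 was 6.22 CPM higher in pia and differed by −3.32 in dura. These Foxp3 values rest on 0 and 2 UMIs in control and 24 h pia and on 3 and 3 in control and 24 h dura.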

How the results depend on the processing

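Over 54 differences of the members, 809 alternative values were computed. The sign changed in 51 of them, none of which passed the threshold, and the largest difference so affected was 0.62 on the log2 scale. Trdc in all annotated cells under stroke, at −0.14, became 0.0026 with kit version as a covariate, 0.27 after thinning and −0.28 to 0.058 with each library left out. The 10 mean levels in Tc moved by less than the spread between libraries. The counts of called genes moved far more. Fits with kit version use the versions as given, which barcode sharing did not follow. In Tc, dura against brain called 124 genes, with 79 by DESeq2, 532 without a filter, 6 with kit version as a covariate, 56 after thinning and 2 to 1238 with each library left out. In Tc, pia against brain called 8, with 55 by DESeq2, 40 with library size alone, 279 without a filter, 1 with kit version, 78 with gene list as a covariate, 55 in the 6 libraries with the longer list and 0 to 808 with each library left out. For stroke in Tc, 0 became 2 without a filter, 58 with gene list and 55 in the 6 libraries, and stayed 0 to 0 with each library left out. In all annotated cells, dura against brain called 542, with 1832 by DESeq2, 340 with library size alone, 972 without a filter, 11 with kit version, 5039 with gene list, 6190 in the 6 libraries and 0 to 735 with each library left out, the 0 being without the 24 h dura library. There pia against brain called 38, with 778, 9, 332, 0, 3236, 4828 and 0 to 64 under the same settings, and stroke 0, with 73 by DESeq2, 9 without a filter, 3 with gene list and 69 in the 6 libraries.

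Members called in Tc in dura were 0, with 1 by DESeq2 (Cd8b1), 1 without a filter (Trdc), 3 with gene list and 3 in the 6 libraries (Cd8a, Cd8b1 and Trdc, the last at 0 in 2 brain libraries) and 0 to 1 with each library left out, the 1 being Cd8b1 without the first 24 h brain library. For stroke in Tc 0 became 1 (Cd3e) with gene list and in the 6 libraries. In all annotated cells 5 members in dura became 8 by DESeq2, 8 without a filter, 1 with kit version, 8 after thinning, 9 with gene list, 9 in the 6 libraries and 0 to 6 with each library left out. In pia 0 became 6 by DESeq2, 5 without a filter, 9 with gene list and 9 in the 6 libraries. The gene list settings were chosen after seeing the data, and the cause of these moves was not tested.

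Shares reversed in 6 of 68 settings. Cd8a without Cd4, brain minus meninges, was 3.69 percentage points and became −3.65 at 1000 UMIs, −0.0151 to 6.18 with each library left out (the lowest without the control brain library) and −3.62 without the 2 brain libraries of under 50 Tc cells. Without those 2, the share with neither gene became 1.603 and Cd8b1 −2.32, and at 1000 UMIs Foxp3 became 0.392.

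No paired analysis was made, since the sources used here do not say which libraries came from the same mice. Any pairing of tissues by animal was therefore ignored. Depth limits Foxp3 and Cd4 most, and the 31 and 33 Tc cells of 2 brain libraries limit every comparison with brain. With 1 library in most groups, stroke within a tissue was not tested, and tissue cannot be told apart from what else differed between these libraries.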
